A study of Rattus norvegicus with 5 samples.

Results

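The transcripts described here were those of 5 genes that mark red blood cells and granulocytes: a pair of alpha globin genes (ENSRNOG00000029886, called alpha globin A here, and ENSRNOG00000047321, alpha globin B), 1 beta globin gene (ENSRNOG00000047098), S100a8 (ENSRNOG00000011557) and S100a9 (ENSRNOG00000011483). They were chosen by identifier, with earlier results of these data known, and all 5 were found among the 35495 features of the deposited tables. The RNA came from microglia of male Sprague Dawley rats, whose age the labels give as 3 months and the methods of the study as a range of weeks below that. The mothers of the control group had been injected during pregnancy with an empty adenovirus, and those of the CYP11A1 group with an adenovirus carrying human CYP11A1 cDNA under a CMV promoter, so that every offspring had a mother that received virus through the tail vein. The virus was given to the dam and not to the cells that were sequenced. Brains were perfused and minced, the cells were separated on Percoll gradients, and full-length cDNA was made from the RNA and amplified by PCR. The analysis covered 2 control libraries (control 1 and control 3) and 3 CYP11A1 libraries (CYP11A1 1, 2 and 3), and nothing in the sources says whether littermates were used.

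Haemoglobin carries oxygen in red blood cells and is built from alpha and beta globin chains, each holding a haem group. The globin genes lie in clusters of near-identical copies, and their mRNA persists in reticulocytes, the youngest circulating red cells, after the nucleus is lost. S100a8 and S100a9 are small calcium-binding proteins that pair to form calprotectin, which is stored in large amounts in neutrophils and in lesser amounts in monocytes, binds zinc and manganese, and signals through Toll-like receptor 4 and the receptor for advanced glycation end products. Resting microglia are the resident phagocytes of the brain and are not known as a major source of either protein, whereas blood that stays in the vessels of a dissociated brain holds both. Whether the transcripts measured here came from blood cells was not tested.

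The genes sit in separate clusters. In the RefSeq annotation of the rat assembly GRCr8, the alpha globin genes Hba-a1, Hba-a2 and Hba-a3 are on chromosome 10 with 2 other genes between them, 4 beta globin genes (Hbb, Hbb-b1, Hbb-b2 and Hbb-bs) are on chromosome 1, and S100a8 and S100a9 are direct neighbours on chromosome 2 with 0 genes between them. The identifiers in the files could not be tied to single members of the globin clusters, because 0 of the 35495 features matched a symbol in the table used here. For the same reason the gene names, S100a8 and S100a9 among them, were taken as given with the identifiers and were not checked. The 180 bases before the start site are given for the 3 alpha globin genes, to make visible how alike the copies are, and for Hbb and S100a9 as the other families. No such window was available for S100a8. Capitals mark 4 motifs, searched on both strands. The TATA box was searched as TATAAA. The second motif, which is found in many promoters, was CCAAT. The GATA motif, of the kind read by the erythroid factor GATA1, was searched as GATAA. The last, of the kind read by the erythroid factor KLF1, was CACCC. The run of capitals in Hbb before the start site holds the second motif on opposite strands, side by side.
Hba-a1 (GRCr8 chr10:15842581-15842760, minus strand): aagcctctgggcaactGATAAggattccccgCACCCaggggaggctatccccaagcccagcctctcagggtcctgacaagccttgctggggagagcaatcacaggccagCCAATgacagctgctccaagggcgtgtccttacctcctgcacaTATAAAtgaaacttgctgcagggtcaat
Hba-a2 (GRCr8 chr10:15829139-15829318, minus strand): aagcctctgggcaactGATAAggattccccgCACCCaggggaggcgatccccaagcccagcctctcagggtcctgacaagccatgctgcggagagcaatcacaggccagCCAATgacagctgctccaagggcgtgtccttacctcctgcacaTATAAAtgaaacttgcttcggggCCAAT
Hba-a3 (GRCr8 chr10:15816944-15817123, minus strand): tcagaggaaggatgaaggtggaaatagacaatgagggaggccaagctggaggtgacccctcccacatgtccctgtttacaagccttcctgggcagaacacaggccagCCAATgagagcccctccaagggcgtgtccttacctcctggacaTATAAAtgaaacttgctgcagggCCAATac
Hbb (GRCr8 chr1:167663722-167663901, minus strand): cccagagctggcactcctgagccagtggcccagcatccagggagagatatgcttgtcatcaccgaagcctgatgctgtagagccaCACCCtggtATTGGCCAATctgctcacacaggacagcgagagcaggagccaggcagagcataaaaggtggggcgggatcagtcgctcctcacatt
S100a9 (GRCr8 chr2:178490623-178490802, minus strand): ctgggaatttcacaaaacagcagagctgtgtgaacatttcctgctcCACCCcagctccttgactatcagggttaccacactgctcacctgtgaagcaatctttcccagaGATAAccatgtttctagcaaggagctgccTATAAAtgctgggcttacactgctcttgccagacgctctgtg

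Over these windows Hba-a1 and Hba-a2 were identical at 174 of 180 bases (96.7%), and Hba-a1 and Hba-a3 at 137 of 195 aligned columns (70.3%). The sequence of Hbb matched that of Hba-a1 at 54.0% of aligned columns, and that of S100a9 matched Hba-a1 at 54.1%. Hba-a1 and Hba-a2 hold a GATAA at position -164, a CACCC at -149, a CCAAT at -71 and a TATAAA at -28, counted back from the start site. A further CCAAT lies at -5 in Hba-a2. Hba-a3 holds TATAAA at -30 and CCAAT at -73 and -7, and neither GATAA nor CACCC in this window. Hbb holds a CACCC at -95, a CCAAT at -81 and no TATAAA in these letters. The other beta globin genes with a window hold TATAAA at -30 (Hbb-b1 and Hbb-b2) or -29 (Hbb-bs). S100a9 holds a TATAAA at -42, a GATAA at -71 and a CACCC at -134. Of 33465 rat promoters with the same window, 9.41% hold TATAAA, 27.0% CCAAT, 17.1% GATAA and 40.0% CACCC. These matches describe the letters and are not binding sites.

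The libraries held 9623896 to 13624545 counts, and the counting floor of 3 counts lay at 0.220 to 0.312 CPM (counts scaled to a common library size). Between 10766 and 16969 features had a count, with the fewest in CYP11A1 3 and control 1, and the 10 most counted features took 37.5% to 65.4% of each library. TMM factors, by which edgeR adjusts library sizes for composition, were lowest in CYP11A1 1 (0.615) and highest in CYP11A1 2 (1.35). Because the files carry identifiers only, the Cyp11a1 transcript, markers of microglia and markers of other blood cells were not analysed here, and the labelled cell type could not be checked against them. The paper gives a purity of the cells from Cd11b staining, which the counts were not set against here. In RNA of whole cell suspensions, fewer cells of a type and less RNA per cell cannot be told apart.

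All 5 genes were counted in every library, far above the floor, and each lay among the most abundant transcripts in some libraries. The lowest count was 884, for beta globin in control 3. Together the globin and calprotectin genes held 2.34% of all counts in control 1, 1.72% in control 3, and 2.23%, 2.23% and 1.23% in CYP11A1 1, 2 and 3. How that sum was divided differed widely. Globin transcripts were abundant in control 1 and CYP11A1 1, while calprotectin transcripts were abundant in control 3 and CYP11A1 2, so that either family had a high and a low library in each group.

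Alpha globin A had the highest level of the 3 globin genes in every library. Its level in FPKM (counts per kilobase of the 556 bp feature and of library size, on the usual scale) was 19911 in control 1 and 1332 in control 3, and 20765, 2682 and 7484 in CYP11A1 1, 2 and 3. In count order it was feature 16 of control 1 and feature 13 of CYP11A1 1, but feature 85 of control 3. The control libraries differed 15.0-fold, which was more than the whole range of the CYP11A1 group (7.74-fold), and the groups overlapped.

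Alpha globin B, the other alpha chain gene with a feature length of 557 bp, had the same 2 libraries at the top, in the reverse order, and the same order among the other 3, on a lower level. Its FPKM was 8189 in control 1 and 661 in control 3, and 7609, 780.2 and 2822 in CYP11A1 1, 2 and 3. Alpha globin A exceeded alpha globin B in each library by a ratio that stayed between 2.01 (control 3) and 3.44 (CYP11A1 2), although the level of each gene moved over 12-fold between libraries. Reads that fit more than 1 alpha globin copy may have been dropped or split by the counting (the submitters' notes name HTSeq, without its settings), so the ratio of the copies and their absolute levels are uncertain.

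Beta globin, which encodes the partner chain, varied most. Its FPKM on a 661 bp feature was 3682 in control 1 and 139 in control 3, and 6036, 593 and 472 in CYP11A1 1, 2 and 3. The highest library stood 43.4-fold above the lowest. CYP11A1 3 lay above CYP11A1 2 for both alpha globins and below it for beta globin. The summed alpha globins exceeded beta globin 7.63-fold in control 1, 14.3-fold in control 3, 4.70-fold in CYP11A1 1, 5.84-fold in CYP11A1 2 and 21.9-fold in CYP11A1 3, on the FPKM scale. The same limit on near-identical copies holds for this ratio, and other beta globin genes are not part of it.

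**Figure D1:**
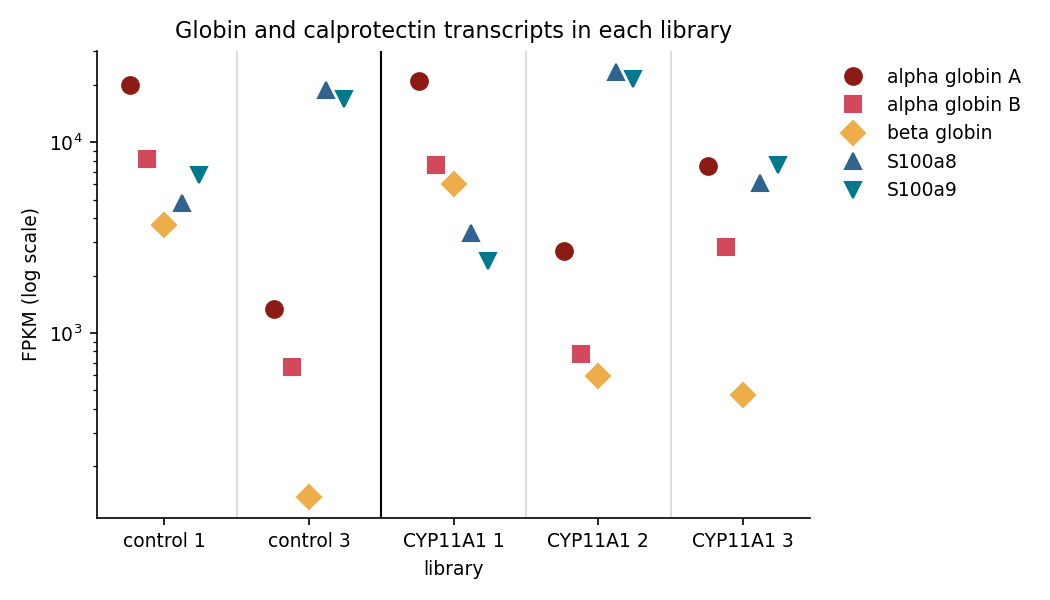
FPKM (log axis) of the 5 genes in each of the 5 libraries, with 1 point per gene and library and a black line between the control and the CYP11A1 libraries. Both alpha globins lie above both calprotectin genes in control 1 and CYP11A1 1, and all globins lie below them in control 3 and CYP11A1 2.

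S100a8, the calprotectin subunit with a feature length of 377 bp, took the opposite course. Its FPKM was 4785 in control 1 and 18816 in control 3, and 3327, 23289 and 6095 in CYP11A1 1, 2 and 3. Control 3 and CYP11A1 2 were the high libraries, where S100a8 was feature 17 by count, and both alpha globins were lowest in these libraries. The control libraries differed 3.93-fold and the CYP11A1 libraries 7.0-fold.

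S100a9, the other subunit, was counted on a 528 bp feature. Its FPKM was 6726 in control 1 and 16840.0 in control 3, and 2377, 21275 and 7577 in CYP11A1 1, 2 and 3. The order of the libraries on the FPKM scale was the same as for S100a8, and the ratio of S100a8 to S100a9 stayed between 0.711 (control 1) and 1.40 (CYP11A1 1). In control 3 and CYP11A1 2 this ratio was 1.12 and 1.09, so that the libraries richest in calprotectin transcripts held the 2 subunits in close to equal amounts per length.

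The scaling of the libraries bears on these ranges. On CPM divided by the TMM factor, the highest library stood 26.9-fold above the lowest for alpha globin A, 21.5-fold for alpha globin B and 75.0-fold for beta globin, against 3.58-fold for S100a8 and 4.10-fold for S100a9. Control 1 and CYP11A1 1 kept the highest globin levels, and control 3 and CYP11A1 2 the highest calprotectin levels. The other 3 libraries then lay close together for S100a8, at 1865 in control 1, 2041 in CYP11A1 1 and 1965 in CYP11A1 3 (TMM-scaled CPM), and CYP11A1 1 was no longer the lowest. For alpha globin B, CYP11A1 2 (321) and control 3 (347) changed places at the low end, and CYP11A1 1 (6896) and control 1 (4716) at the high end. S100a9 no longer shared the order of S100a8, as its lowest library was CYP11A1 1 (2042), below CYP11A1 3 (3421) and control 1 (3672).

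As shares of the library, the 3 globin genes took 1.81% of the counts in control 1 (95% Wilson interval 1.80% to 1.81%) and 0.12% in control 3 (0.118% to 0.122%). They took 1.98%, 0.232% and 0.604% in CYP11A1 1, 2 and 3. The calprotectin genes took 0.536% in control 1 (0.532% to 0.539%) and 1.60% in control 3 (1.59% to 1.61%). They took 0.251%, 2.0% and 0.630% in CYP11A1 1, 2 and 3. The differences between the libraries of 1 group were thus far outside counting error, which is all that these intervals cover, as molecular identifiers were not used. The mean globin share was 0.963% ± 1.19 (SD, n = 2) in the control group and 0.938% ± 0.919 (SD, n = 3) in the CYP11A1 group. The mean calprotectin share was 1.07% ± 0.752 (SD, n = 2) and 0.961% ± 0.921 (SD, n = 3). Both differences between these means were a small part of the spread within the groups. On TMM-scaled library sizes, or without the 10 most counted features, the mean globin share was instead higher in the CYP11A1 group. CYP11A1 1 then stood at 3.22% and 5.72%. The mean calprotectin share stayed lower in the CYP11A1 group on both.

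**Figure D2:**
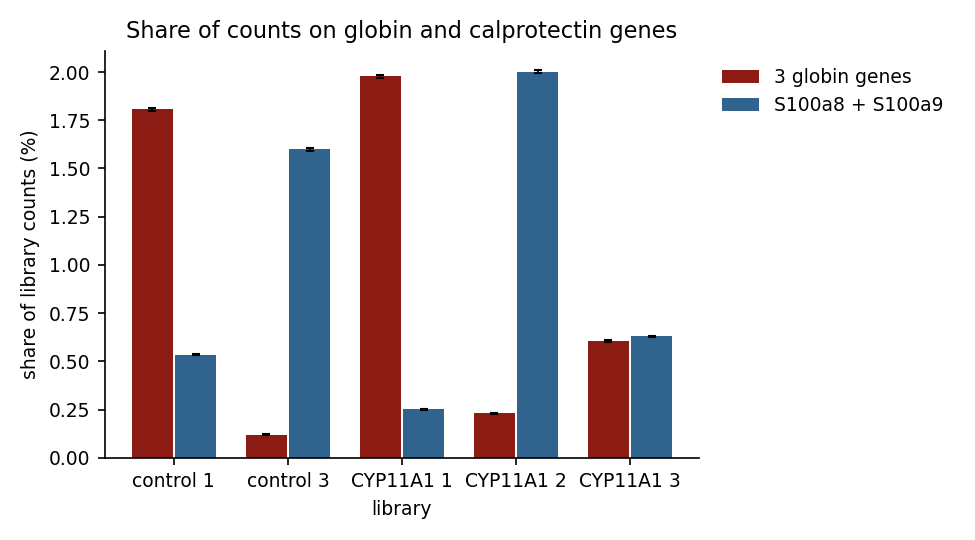
Share of all counts (%) on the 3 globin genes and on S100a8 plus S100a9 in each library, with error bars for 95% Wilson intervals that cover counting error only. The globin share reaches 1.98% in CYP11A1 1 where calprotectin is at 0.251%, and the calprotectin share reaches 2.0% in CYP11A1 2 where the globins are at 0.232%.

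Ratios between genes of 1 library do not depend on how the libraries are scaled. The summed FPKM of calprotectin divided by that of the 3 globins was 0.362 in control 1 and 16.7 in control 3, and 0.166, 11 and 1.27 in CYP11A1 1, 2 and 3. This ratio spanned 101-fold over the 5 libraries. Within families the span was smaller, at 1.71-fold for the alpha globin pair, 1.97-fold for the calprotectin pair and 4.65-fold for alpha against beta globin. The families thus did not vary together, while the members of each pair were held close together. Control 1 and CYP11A1 1, with the highest summed globin FPKM, had the lowest of calprotectin, and control 3 and CYP11A1 2 the reverse.

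**Figure D3:**
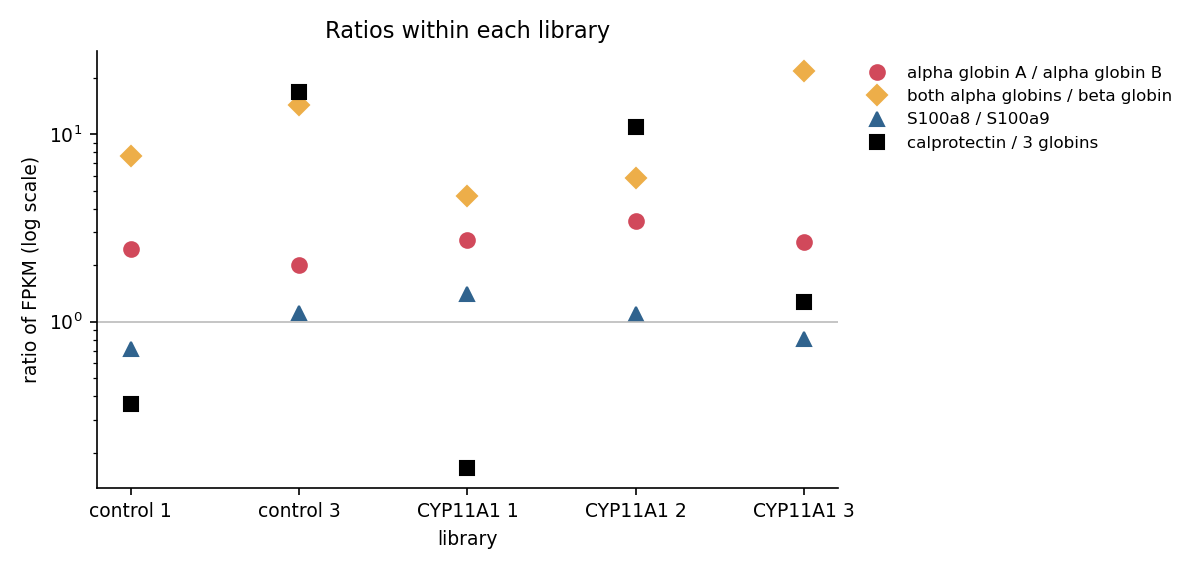
Ratios of FPKM (log axis) within each library, for the alpha globin pair, both alpha globins over beta globin, the calprotectin pair and calprotectin over the 3 globins. Ratios inside a pair stay between 0.711 and 3.44, while calprotectin over globin runs from 0.166 in CYP11A1 1 to 16.7 in control 3.

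The groups were compared in 1 fit over all 10346 features that passed the filter on low counts, which all 5 genes did (quasi-likelihood test of edgeR, p-values adjusted by Benjamini and Hochberg's method). No difference between the groups passed the adjusted threshold of 0.05 for any of the 5. The fit called 0 features in all (0%) and DESeq2 called 11 (0.106%). Before adjustment edgeR gave 441 features with p under 0.05 (4.26%), and 0 of these were among the 5 genes. In these estimates 3 genes, the globins, lay above 0 and 2, the calprotectin genes, lay below, and their median log2 fold change (CYP11A1 minus control) was 0.17 beside 0.15 for all features tested.

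The log2 fold change of alpha globin A was 0.36 with a standard error of 1.14 and a 95% interval from -2.12 to 2.84. For alpha globin B it was 0.17, with an interval from -2.31 to 2.66. Beta globin had the widest interval, from -2.15 to 3.85, around a log2 fold change of 0.85 (SE 1.38). The estimates for S100a8 and S100a9 were -0.29 (interval -1.96 to 1.38) and -0.39 (interval -1.98 to 1.19). Each adjusted p was 1.0 in edgeR's quasi-likelihood test, and the unadjusted p-values lay between 0.548 (beta globin) and 0.882 (alpha globin B). Every one of these intervals includes changes of more than 2-fold in either direction, and the result does not show that the groups were alike.

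Single libraries set the direction of these estimates. Without control 3, the library poorest in globins, the log2 fold changes of alpha globin A, alpha globin B and beta globin were -0.64, -0.81 and -0.18. Without control 1 they were 3.47, 3.03 and 4.75. Without CYP11A1 1, the globin-rich CYP11A1 library, they were -1.38, -1.61 and -2.22. S100a8 and S100a9 turned to 0.93 and 0.34 without control 3, and S100a8 to 0.011 without CYP11A1 3. With only library size as scaling, alpha globin A (-0.043) and alpha globin B (-0.24) also changed sign. In none of these fits was any of the 5 genes called, and the smallest adjusted p over all fits was 0.714.

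**Figure D4:**
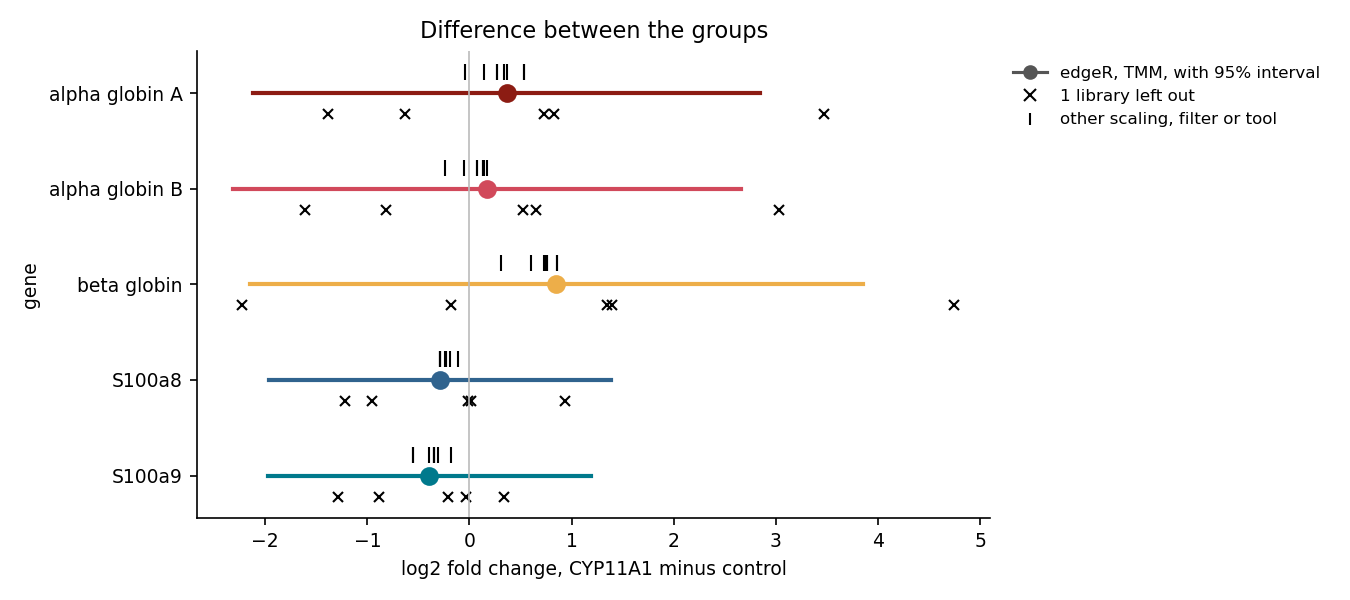
Log2 fold change (CYP11A1 minus control) of each gene, with circles and bars for edgeR's estimate and its 95% interval, crosses for the fits with 1 library left out and ticks for other scalings, filters and tools. Every interval crosses 0, and the crosses for beta globin run from -2.22 to 4.75; the alpha globin ticks fall on both sides of 0.

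Set beside other features, the globins varied more than most. The range of log2(CPM + 1) over the 5 libraries was 5.43 for beta globin, and 43 of the 10346 features tested (0.416%) had a wider one. It was 3.96 for alpha globin A and 3.63 for alpha globin B, with 4.48% and 7.57% of features wider. It was 2.81 for S100a8 and 3.16 for S100a9, with 22.8% and 14.2% wider, and the median feature had a range of 2.06. Among the 100 most counted features, where the median range was 1.53, 1 was wider than beta globin and 25 were wider than S100a8. These ranges are on CPM without TMM factors, and the comparison with other features was not repeated on TMM-scaled values. On that scale the ranges of S100a8 (3.58-fold) and S100a9 (4.10-fold) were narrower, and that of beta globin (75.0-fold) and both alpha globins wider.

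Few features shared the pattern of the globins, and many shared that of calprotectin. Likeness was measured as the root mean square difference between log2(CPM + 1) profiles centred on their means, over 5 libraries, and is given as a description. Within 0.5 of alpha globin A, alpha globin B and beta globin there were 1, 2 and 1 of the 10341 other features. Within the same distance of S100a8 there were 462 (4.47%), and of S100a9 there were 116 (1.12%). A profile with a narrow range has more features near it, and this was not corrected for. The profiles were not TMM-scaled, and likeness was not computed on another scaling. Alpha globin A and alpha globin B were 0.25 apart, S100a8 and S100a9 were 0.35 apart, and alpha globin A and S100a8 were 2.64 apart.

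The feature nearest to alpha globin A was ENSRNOG00000058105, at a difference of 0.24. Its FPKM was 69015 in control 1 and 4293 in control 3, and 78366, 14138 and 28339 in CYP11A1 1, 2 and 3. It stood above alpha globin A, and above the summed FPKM of the 3 globin genes, in each of the 5 libraries. The nearest feature to beta globin was ENSRNOG00000060629 (0.33), with FPKM of 3900 and 252 in the controls and 6108, 579 and 612 in CYP11A1 1, 2 and 3. Like beta globin, it was low in CYP11A1 3. No table used here gives a symbol for either identifier, and whether they are globin genes was not tested.

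The features nearest to the calprotectin genes were much less abundant. ENSRNOG00000011498, nearest to S100a8 (0.13), had 84 and 258 counts in control 1 and control 3, and 44, 395 and 138 in CYP11A1 1, 2 and 3. ENSRNOG00000011853, nearest to S100a9 (0.062), had 319 and 550 counts in the controls, and 82, 769 and 307 in the CYP11A1 libraries. Both were highest in control 3 and CYP11A1 2 on the CPM scale, as S100a8 and S100a9 were.

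**Figure D5:**
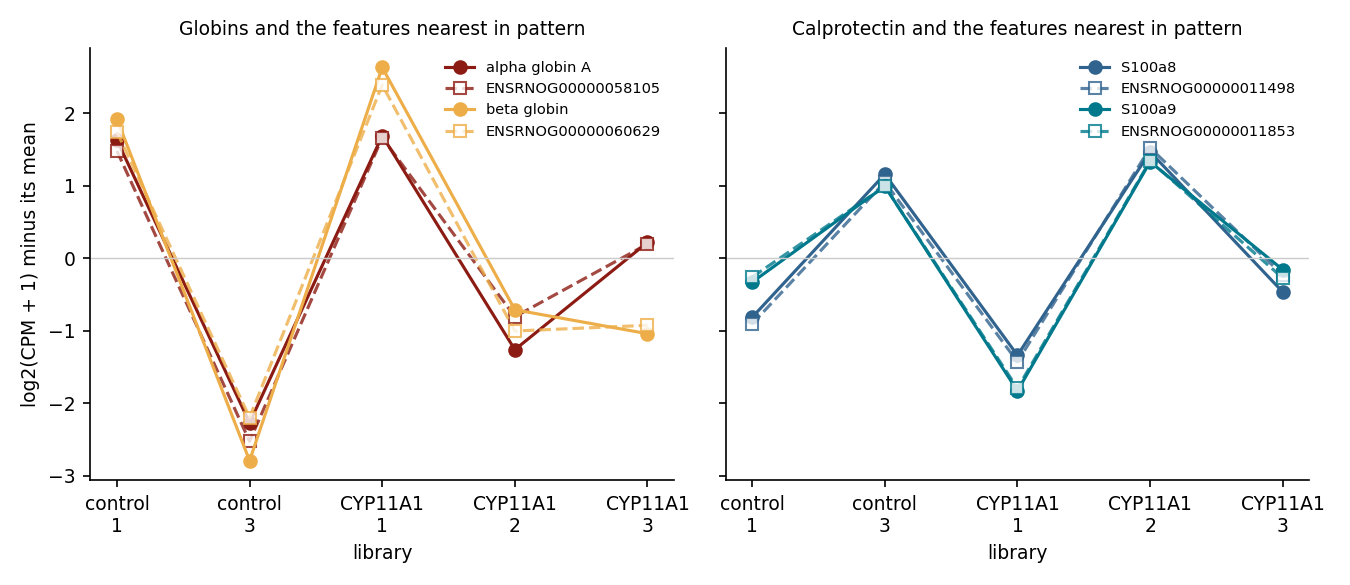
Centred log2(CPM + 1) in each library for alpha globin A, beta globin, S100a8 and S100a9 (filled points) and the feature nearest to each in pattern (open points), with lines only joining points of 1 feature. The left panel peaks in control 1 and CYP11A1 1 and the right panel in control 3 and CYP11A1 2.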

How the data were processed

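The deposited libraries hold microglial RNA of 2 control and 3 CYP11A1 offspring, and columns were matched to samples by title. The paper gives an N of 3 per group for its transcriptome. The authors deposited raw read counts per feature and FPKM, which are the counts scaled to feature length and library total. The submitters' processing notes name HISAT2 2.0.4 and HTSeq 0.9.1, and the genome build and annotation are not given in the sources used here. The labels name a small RNA kit and the methods of the study a full-length cDNA kit. Feature lengths were recovered by dividing counts by FPKM, and all 70558 values above 0 gave a whole number within 0.01 bp. Amplification of cDNA by PCR can widen the spread between libraries, and whether it did so here was not tested.

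Counts were compared with edgeR 4.0.16 (TMM, filterByExpr with a minimum count of 10, glmQLFit with legacy set to FALSE, glmQLFTest) in R 4.3.3, with group as the only term and Benjamini-Hochberg adjustment over 10346 features at 0.05. Standard errors were the log2 fold change divided by the square root of F. The labels do not say that libraries came from separate litters, so p-values measure the spread between these libraries. Depth was 9623896 to 13624545 counts, and Wilson intervals at 95% cover counting error only. Alternatives were DESeq2 1.42.0, limma 3.58.1 on log2(FPKM + 1) and log2(FPKM + 0.1), other scalings and filters, the replicate number as a block, and each library left out. Figures used Python 3.11.15 and matplotlib 3.10.9. On simulated counts with low spread (dispersion 0.05), 200 of 200 features changed 4-fold were recovered and 8 others were called. At the spread of these libraries, 0 of 200 changed 4-fold and 0 of 196 changed 16-fold were recovered.

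The genes and lists were chosen with earlier results of these data known. The naming rule was to name all 5 genes, listed markers and the 3 features nearest in pattern to each gene. Without symbols, the 15 planned gene lists could not be tested, and only the nearest feature was named for alpha globin A, beta globin, S100a8 and S100a9.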

Additional observations from a re-analysis of the deposited data

How the results depend on the processing

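At an adjusted threshold of 0.05, 0 features were called by edgeR's quasi-likelihood test and by 13 of the 15 other fits. DESeq2 called 11, and leaving out the filter gave 10. With 1 library left out, 0 features were called at this threshold in each case. At an unadjusted p under 0.05 the count was 441, and 222 to 752 with 1 library left out. Of 75 alternative log2 fold changes of the 5 genes, 63 kept their sign and 12 did not, and none was called. With library size alone, alpha globin A was at -0.043 and alpha globin B at -0.24, and without a filter alpha globin B was at -0.055. With 1 library left out, the log2 fold change ran from -1.38 to 3.47 for alpha globin A, from -1.61 to 3.03 for alpha globin B, from -2.22 to 4.75 for beta globin, from -1.22 to 0.93 for S100a8 and from -1.28 to 0.34 for S100a9. Where 1 control remained, it was assumed to vary like the CYP11A1 libraries.

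Libraries numbered 1 and 3 occur in both groups, and deviations of same-numbered libraries correlated at r = -0.215 across 10346 features, which are not replicates. On that correlation the numbers were not taken as pairs. The globin and calprotectin genes ran against it on the CPM scale. In both groups, library 1 lay above library 3 for all the globins, and below it for S100a8 and S100a9. TMM-scaled CPM of S100a8 did not keep this, at 2041 in CYP11A1 1 and 1965 in CYP11A1 3. Whether the numbers mark pairs was not tested further. With the replicate block, which leaves out CYP11A1 2 because no control shares its number, 0 features were called and 101 had an unadjusted p under 0.05, and the log2 fold changes were 1.41, 1.13 and 1.38 for alpha globin A, alpha globin B and beta globin, and -0.94 and -1.19 for S100a8 and S100a9. Leaving out CYP11A1 2 without the block gave 0.83, 0.65, 1.35, -1.22 and -1.28 in the same order. The crossed replicate block, added after seeing that correlation, called 0 features, with 355 at an unadjusted p under 0.05.

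None of the globin and calprotectin genes was among the 10 most counted features, so a total without those had to raise every share. The shares were then 1.60 to 2.89 times those reported. The globin share was then 5.72% in CYP11A1 1 and 3.62% in control 1, and the calprotectin share was 3.99% in control 3 and 4.30% in CYP11A1 2. On TMM-scaled library sizes the shares were 0.738 to 1.63 times those reported, and the globin share of CYP11A1 1 was 3.22%. Over all alternative totals, including features with an Ensembl identifier only, 12 globin shares and 13 calprotectin shares moved by under 1 SD of the group. That SD is wide for both families. The 3 globin values and 2 calprotectin values given here moved by more. The cause of these differences was not tested.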
